A study of Mus musculus with 2 samples.

Results

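Cells expressing a mitotic programme were compared with cells that did not among the Ctsk-Cre reporter cells of the neonatal mouse femur. A well, which holds the RNA of 1 sorted cell, was called cycling when 15 G2/M genes (Mki67, Top2a, Cdk1, Ccnb1, Ccnb2, Ube2c, Birc5, Cenpf, Tpx2, Aurka, Aurkb, Plk1, Nusap1, Cdc20 and Bub1) together reached at least 1000 CPM. CPM is a count scaled to the total of its well. A well under 50 CPM was called non-cycling. For summed wells, CPM is the count scaled to the total of the sum multiplied by a normalisation factor from edgeR (TMM). In animals 1 and 2 this factor was 1.083 and 1.101 for cycling sums and 0.93 and 0.913 for non-cycling sums. The rule found 28 cycling wells, 16 in animal 1 and 12 in animal 2, and 558 non-cycling wells, 266 and 292. These 586 wells were drawn from 653 kept wells of 658 in all. The other 67 kept wells, 36 and 31, lay in between. Cycling wells made up 5.03% of the kept wells of animal 1 (95% exact Clopper-Pearson interval 2.90 to 8.04%) and 3.58% of those of animal 2 (1.86 to 6.17%), so the intervals of the animals overlapped. The intervals cover counting error only.

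All wells came from 1 group of 2 C57/B6 littermates taken on postnatal day 6, with the genotype CTSK-cre+ mTMG and no treatment named in the labels. In this cross Cre is made from the cathepsin K (Ctsk) promoter and turns on a membrane-bound GFP, so a sorted cell either uses that promoter or descends from a cell that did. Femurs were digested with collagenase and mGFP-positive cells were sorted individually into wells, with plate 47 for animal 1 and plate 48 for animal 2. Animal and plate therefore cannot be told apart, and a fluorescence gate marks neither a lineage stage nor a cell type. The labels call the cells mesenchymal, and the matrix gene Sparc was seen in every cycling and non-cycling well. Neither GFP nor Cre was measured by name in the analysed table. Ctsk itself was at 193 and 122 CPM in the cycling cells of animals 1 and 2 and at 280 and 185 CPM in the non-cycling cells. It was seen in 9 of 16 and 8 of 12 cycling wells.

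A dividing cell copies its DNA in S phase and separates the copies in mitosis, with gap phases before and between these steps. Cyclins switch their kinases on in turn: D-type and E-type cyclins lead into S phase, and cyclins A and B with Cdk1 drive mitosis. The E2F factors turn on replication genes at the start of S phase, and the MuvB, B-Myb and FoxM1 complexes turn on mitotic genes later. In young bone, division takes place mainly in columnar chondrocytes of the growth plate, in the perichondrium and periosteum and in early osteoblast precursors, and it stops as these cells mature.

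Depth differed between the states. Cycling wells held a median of 142940 and 165012 counts in animals 1 and 2, and non-cycling wells 95380 and 115136. The deepest cycling wells, at 177332 and 221736 counts, lay under the deepest non-cycling wells at 416555 and 351646. Median genes detected per well were 3010 and 2896 in cycling against 2133 and 2122 in non-cycling wells. After each well was thinned to 20000 counts, which left out 2 non-cycling wells of animal 1 and none of animal 2, the medians were 2060 and 1972 against 1547 and 1510, so more genes were seen in cycling wells at equal depth too. Mitochondrial shares were alike, with medians of 2.77 and 2.99% in cycling and 3.6 and 3.32% in non-cycling wells. The 2 plates used the same 95 well barcodes. No well position was cycling on both plates, and cycling wells came from all 4 quadrants of each plate. The 5 wells left out had no count of any rule gene.

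The 15 rule genes chose the wells, so their values are a description with no test. Among the 3 defining markers, Mki67, the nuclear proliferation antigen, was seen in 11 of 16 and 7 of 12 cycling wells and in 4 of 266 and 5 of 292 non-cycling wells. Top2a, the topoisomerase that untangles sister chromatids, was seen in 12 of 16 and 7 of 12 cycling wells, and Cdk1, the mitotic kinase, in 13 of 16 and 9 of 12. The 3 markers were thus far more often seen in the wells called cycling, though not every such well held a count of each. Cycling wells held a median of 9.5 rule genes in animal 1 and 5 in animal 2, and their G2/M sums had medians of 5951 and 3192 CPM. At the upper threshold the nearest wells in animal 1 were at 1102 CPM inside and 968 CPM outside, and in animal 2 at 1040 and 869 CPM. At the lower threshold the nearest wells were at 39.2 CPM inside and 50.2 CPM outside in animal 1, and at 41.9 and 68.6 CPM in animal 2.

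Rule genes differed in how evenly they were seen. The survivin gene Birc5 was at 1009 and 745 CPM in the summed cycling cells, and Ube2c, which feeds the anaphase-promoting complex, at 857 and 891 CPM. Cyclin B1 (Ccnb1) was at 368 CPM in animal 1, where 12 of 16 cycling wells held it, and at 95.2 CPM in animal 2, where 3 of 12 did. Cenpf, a kinetochore protein of late G2, followed the same order, at 212 CPM in 10 of 16 wells and 52.4 CPM in 2 of 12. Both genes were thus at lower levels, and in a smaller share of cycling wells, in animal 2. A non-cycling call did not mean that rule genes were at 0: 66 of 266 and 49 of 292 non-cycling wells held a count of at least 1 of them, at sums under 50 CPM.

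Cycling wells were next described by gene lists that the rule had not used, as the CPM summed over each list in each well. The list of 53 spindle and mitosis genes ran from 1907 to 22929 CPM with a median of 10157 over the cycling wells of animal 1, and from 2269 to 26417 CPM with a median of 5849 in animal 2. The non-cycling medians were 328 and 419 CPM. All 28 cycling wells exceeded the 95th percentile of the non-cycling wells of their own animal for this list, and all 28 did so for the chromatin and condensin list. The 45 DNA replication genes divided the cycling wells: 9 of 16 and 9 of 12 exceeded that percentile, and the remaining 7 and 3 were high for spindle genes only. No cycling well was high for replication genes alone.

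Individual wells show this spread. In animal 1 the well with the second-highest G2/M sum, 10284 CPM, had 20952 CPM of spindle genes and 1735 CPM of replication genes. In animal 2 a well with a G2/M sum of 1613 CPM had 5846 CPM of spindle genes and 13357 CPM of replication genes. Replication sums of at least 3000 CPM were reached by 8 of 16 and 8 of 12 cycling wells, by 6 of 36 and 4 of 31 wells in between, and by 4 of 266 and 6 of 292 non-cycling wells. Some wells outside the cycling class therefore carried replication transcripts with few or no G2/M transcripts. Spindle sums of at least 3000 CPM were reached by 15 of 16 and 11 of 12 cycling wells, by 3 of 36 and 0 of 31 wells in between, and by 1 of 266 and 0 of 292 non-cycling wells.

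**Figure D1:**
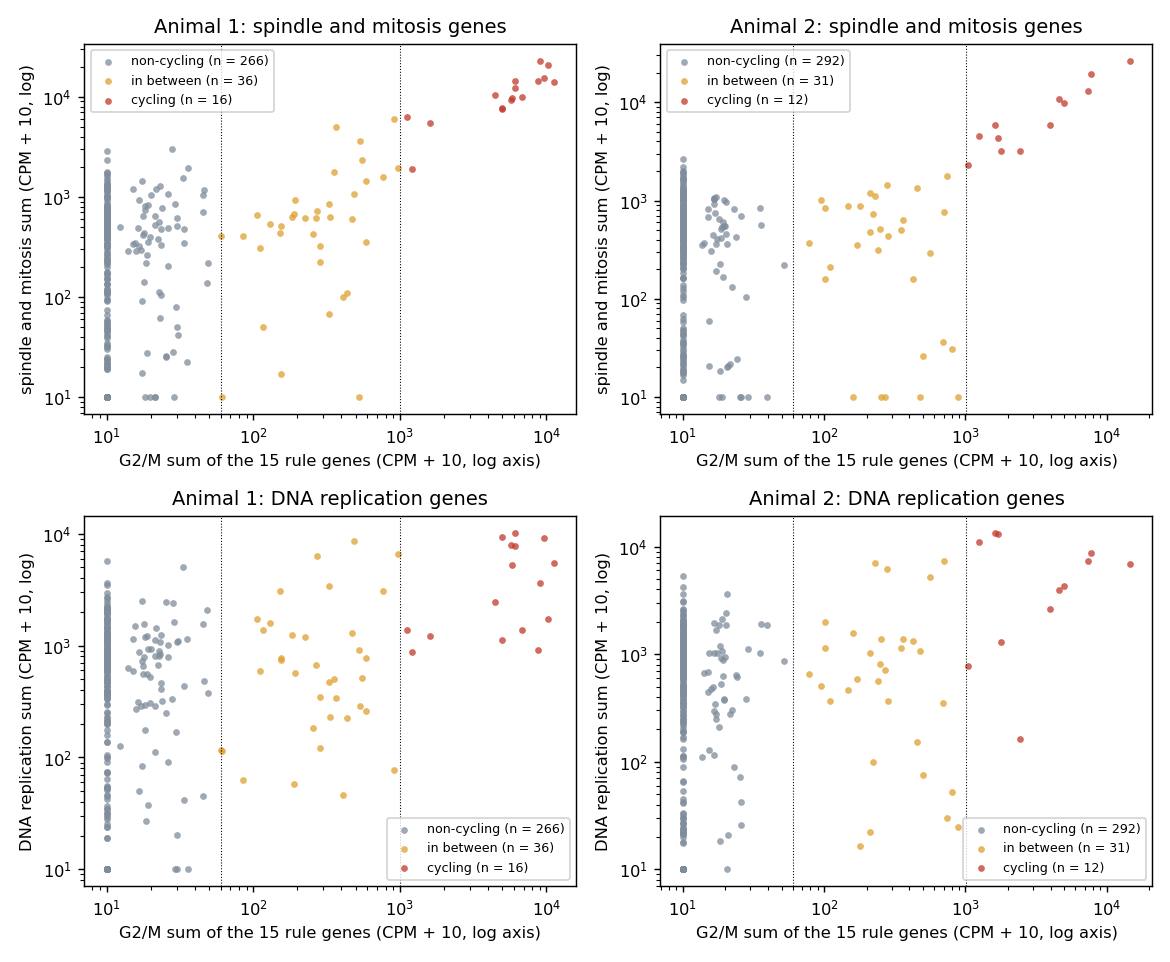
Each point is 1 kept well, with the G2/M sum of the 15 rule genes on the x axis and the sum of the spindle and mitosis list (top) or the DNA replication list (bottom) on the y axis, all as CPM + 10 on log axes, for animals 1 and 2. Dotted lines mark 50 and 1000 CPM. Spindle sums of the 28 cycling wells lie between 1907 and 26417 CPM, and their replication sums spread from 152 to 13357 CPM.

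To compare states over animals, counts were summed per animal and state and the 6 sums were fitted with edgeR's quasi-likelihood test with animal as a block, leaving out the rule genes. The fit had 2 residual degrees of freedom. It called 0 of 12507 genes at an adjusted p of 0.05 (0%), and the smallest adjusted p was 0.141. At an unadjusted p of 0.05 it held 1360 genes (10.9%), 347 higher (2.77%) and 1013 lower (8.1%) in cycling cells. The median log2 fold change over all genes tested was -0.66, and -0.48 with DESeq2 size factors, and 1691 of the tested genes (13.5%) had no count in the cycling sums of either animal. Log2 fold changes of this fit given below should be read against that median.

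Other ways of weighing the wells called genes. With every well thinned to 20000 counts before summing, edgeR called 54 of 7536 genes (0.717%), 36 higher (0.478%) and 18 lower (0.239%). A limma fit on the mean of log2(CPM + 10) over wells, in which each well weighs the same, called 89 of 9277 genes (0.959%), 81 higher (0.873%) and 8 lower (0.0862%). The later form of the edgeR fit, which lowers the degrees of freedom of genes with small counts, called 52 of 12507 (0.416%), 48 higher (0.384%) and 4 lower (0.032%). DESeq2 called 700 of the 10082 genes for which it gave an adjusted p (6.94%), 278 higher (2.76%) and 422 lower (4.19%). The limma fit and the later edgeR fit were chosen after seeing the data. The median log2 fold change over all genes tested was -0.34 in the thinned fit, -0.36 in the later edgeR fit and 0.05 in limma. Thinned, limma and later edgeR fits shared 25 called genes, of which all but Sparc were higher in cycling cells. Genes are called below by these 3 fits, and adjusted p-values are those of the thinned edgeR fit unless another is named. The wells were chosen by genes of the mitotic programme, so calls of other cell cycle genes describe the chosen wells and are no independent support. Genes at low levels in non-cycling cells may also have passed the thinned fit's filter on low counts through the cycling cells. Their calls are a description.

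Genes of histone variants and chromatin proteins were higher in cycling cells. H2afz, the gene of the variant H2A.Z (chromosome 3, 137864487 to 137866922, mm10), was seen in all 28 cycling wells. Over cycling wells it ran from 312 through a median of 1022 to 2070 CPM in animal 1 and from 422 through 939 to 1568 CPM in animal 2. Over non-cycling wells it ran from 0 through 42.8 to 597 CPM and from 0 through 52.3 to 1998 CPM, so the wells of both states overlapped while the medians stood far apart. In the sums it was at 948 and 841 CPM in cycling and 100 and 113 CPM in non-cycling cells, a log2 fold change of 3.06 ± 0.21. The value after ± is an approximate standard error from edgeR on the unthinned sums. It is the absolute log2 fold change divided by the square root of the F statistic. All 3 fits called H2afz, with an adjusted p of 0.0102.

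H2afv, which encodes the sister form of H2A.Z, was likewise seen in all 28 cycling wells and stood at 1634 and 1502 CPM against 325 and 324 CPM. H2afx, the variant that is phosphorylated at DNA breaks, stood at 570 and 629 CPM against 39.6 and 51.7 CPM. All 3 fits called both genes higher. Hmgb2, a DNA-bending protein of the HMG-box family, was at 292 and 153 CPM against 10.6 and 12.5 CPM and was seen in 14 of 16 and 9 of 12 cycling wells. Its log2 fold change was 4.20 ± 0.51, and the thinned fit missed the threshold at an adjusted p of 0.0609 while limma called it at 0.0179. Of the 30 chromatin and condensin genes, all tested, 19 were at least 2-fold higher in both animals and none was as much lower, beside 5.46% higher and 24.2% lower among all genes tested. The thinned fit called 5 of 26 higher, beside 0.478% of all genes, and none lower. Since the wells were chosen by genes of the same programme, these counts are a description.

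Tubulins are the building blocks of the spindle. Tuba1b (chromosome 15, 98931425 to 98934565) was at 1352 and 1254 CPM in cycling and 156 and 185 CPM in non-cycling cells, and Tubb5 at 2908 and 2426 CPM against 514 and 573 CPM. Their log2 fold changes were 2.95 ± 0.21 and 2.30 ± 0.17. Stmn1, which encodes the microtubule-destabilising protein stathmin, was seen in all 28 cycling wells and in 23 of 266 and 18 of 292 non-cycling wells. Its cycling wells ran from 56.6 through 328 to 874 CPM in animal 1 and from 18.0 through 328 to 958 CPM in animal 2, and its non-cycling wells reached 192 and 219 CPM. All 3 fits called these 3 genes, Stmn1 with an adjusted p of 0.00735. Stmn1 was at 5.74 and 3.47 CPM in the non-cycling sums and may have passed the thinned fit's filter through the cycling cells. Its call is therefore a description. Across the 12 tubulin and microtubule genes the median log2 fold change was 1.97, and the thinned fit called 4 of 12 higher, beside 0.478% of all genes, and none lower. Alpha-tubulin genes are near copies of each other, so reads may have been split among them, and the same holds for H2afz and Cks1b, which have close paralogues.

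**Figure D2:**
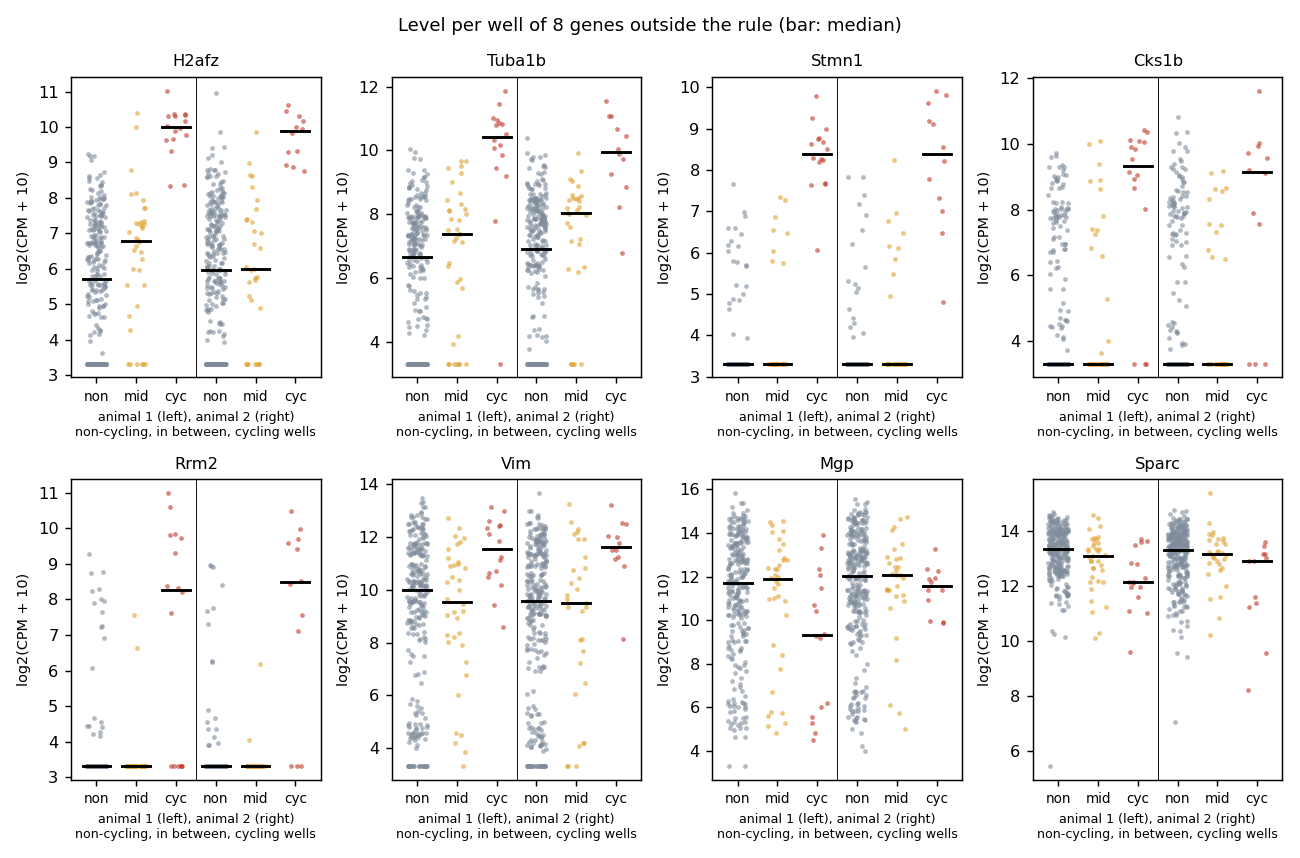
Level in each well, as log2(CPM + 10), of 8 genes outside the rule, for non-cycling (non), in-between (mid) and cycling (cyc) wells of animal 1 (left of each panel) and animal 2 (right). Points are wells and bars are medians. H2afz and Stmn1 are above 0 CPM in all 28 cycling wells, Rrm2 is at 0 in some of them, and Sparc has lower medians in cycling wells of both animals.

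The regulators of cyclin-dependent kinases followed. Cks1b, a small subunit that docks these kinases to their substrates (chromosome 3, 89415472 to 89418383), was at 636 and 754 CPM in cycling and 89.4 and 113 CPM in non-cycling cells. It was also present in 88 of 266 and 91 of 292 non-cycling wells, so it did not mark cycling cells alone. Its paralogue Cks2 had a log2 fold change of 4.84 ± 0.51, against 2.78 ± 0.20 for Cks1b. Cdkn3, a phosphatase that acts on these kinases (chromosome 14, 46760541 to 46771669), was at 466 and 358 CPM against 1.5 and 1.8 CPM. Cdca3, which helps to degrade the mitosis inhibitor Wee1 (chromosome 6, 124829547 to 124833701), was at 890 and 720 CPM against 3.43 and 0.335 CPM, and was seen in 15 of 16 and 9 of 12 cycling wells. All 3 fits called these 4 genes. Cdkn3 and Cdca3 were near 0 in non-cycling cells and passed the filter on low counts through the cycling cells, so their calls are a description. Cks2 was at 11.3 and 10.3 CPM in the non-cycling sums and may have passed the thinned fit's filter in the same way.

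Kinetochore and midzone genes were at low levels in non-cycling wells. Spc24, a subunit of the Ndc80 complex that holds microtubules, was seen in 14 of 16 and 6 of 12 cycling wells and in 8 of 266 and 6 of 292 non-cycling wells. The centromere gene Cenpm was at 238 and 621 CPM against 3.86 and 2.71 CPM. Prc1, which bundles the microtubules of the midzone, was at 288 and 161 CPM against 0.424 and 0.791 CPM, and the mitotic kinase gene Pbk was at 522 and 649 CPM against 1.81 and 0.183 CPM. All 3 fits called these 4 genes. Cyclin A2 (Ccna2) was at 214 and 417 CPM against 0.694 and 0.152 CPM, with a log2 fold change of 10.41 ± 2.37 and an adjusted p of 0.0409. Of the 53 spindle and mitosis genes 51 were tested, and 49 were at least 2-fold higher in both animals, beside 5.46% of all genes. Many members were near 0 in non-cycling cells, so they passed the filter on low counts through the cycling cells, and the wells were chosen by genes of the same programme. The count is therefore a description. The thinned fit called 15 of 45 higher, beside 0.478% of all genes. Their summed counts rested on few wells, since 1 well gave up to 37.6% of the counts of these named genes.

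DNA replication genes were higher too, but in fewer wells. Rrm2, the regulated subunit of ribonucleotide reductase (chromosome 12, 24708241 to 24714146), was seen in 10 of 16 and 9 of 12 cycling wells and in 21 of 266 and 18 of 292 non-cycling wells. Its sums were at 465 and 486 CPM against 18.5 and 12.6 CPM, a log2 fold change of 5.01 ± 0.56. Tk1, the thymidine kinase of S phase, was at 406 and 349 CPM against 0.617 and 2.83 CPM. Tyms, which makes thymidylate, was at 418 and 616 CPM against 34.2 and 27.2 CPM. Pclaf (2810417H13Rik in the table), a partner of PCNA, was at 516 and 500 CPM against 0.154 and 1.61 CPM, and was seen in 15 of 16 and 8 of 12 cycling wells. All 3 fits called these 4 genes, each with an adjusted p of 0.0167 or less. Tk1 and Pclaf were near 0 in non-cycling cells and passed the filter on low counts through the cycling cells, so their calls are a description. For Tk1, 1 well gave 50.5% of the cycling counts of animal 2.

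The helicase subunits Mcm2 to Mcm7 showed smaller and less even differences. Mcm6 had the smallest adjusted p of the 6 in the thinned fit, 0.182, at 61.4 and 205 CPM in cycling against 20.4 and 18.9 CPM in non-cycling cells. Mcm2 was at 13.9 and 88.6 CPM against 8.10 and 23.1 CPM, so the non-cycling cells of animal 2 were above the cycling cells of animal 1. The 6 log2 fold changes ranged from 1.55 ± 1.15 (Mcm2) to 3.59 ± 1.21 (Mcm5), and the thinned and later edgeR fits called none of them, nor did limma among the 5 it tested. Mcm4 turned lower in cycling cells, at -1.38, among wells low in chondrocyte genes. Pcna, the sliding clamp, was at 202 and 331 CPM against 53.5 and 84.9 CPM (1.94 ± 0.28, adjusted p = 0.0943), and 85 of 266 and 108 of 292 non-cycling wells held it. Of 45 replication genes 44 were tested, and 35 were at least 2-fold higher in both animals, beside 5.46% of all genes. The median log2 fold change was 2.58, and the thinned fit called 3 of 42 higher, beside 0.478% of all genes. These counts are a description for the same reason.

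Replication-dependent histones were measured in few wells. Hist1h1b, a linker histone, was at 76.1 and 65.0 CPM in cycling cells and had 1 well with a count among 558 non-cycling wells, but in animal 2 all of its counts came from 1 cycling well. Hist1h2ae was at 87.5 and 104 CPM against 4.05 and 1.40 CPM. Of 13 tested histone genes 8 were at least 2-fold higher in both animals, beside 5.46% of all genes tested. Hist1h1b passed the filter on low counts through the cycling cells, and the wells were chosen by genes of the same programme. The count is therefore a description. The thinned fit called 0 of 8 histone genes, with 54 of 7536 genes called in all. Summed over the list, 7 of 16 and 8 of 12 cycling wells exceeded the 95th percentile of non-cycling wells. Histone genes are near copies of each other, and most of their transcripts carry no poly(A) tail, so these levels are uncertain.

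**Figure D3:**
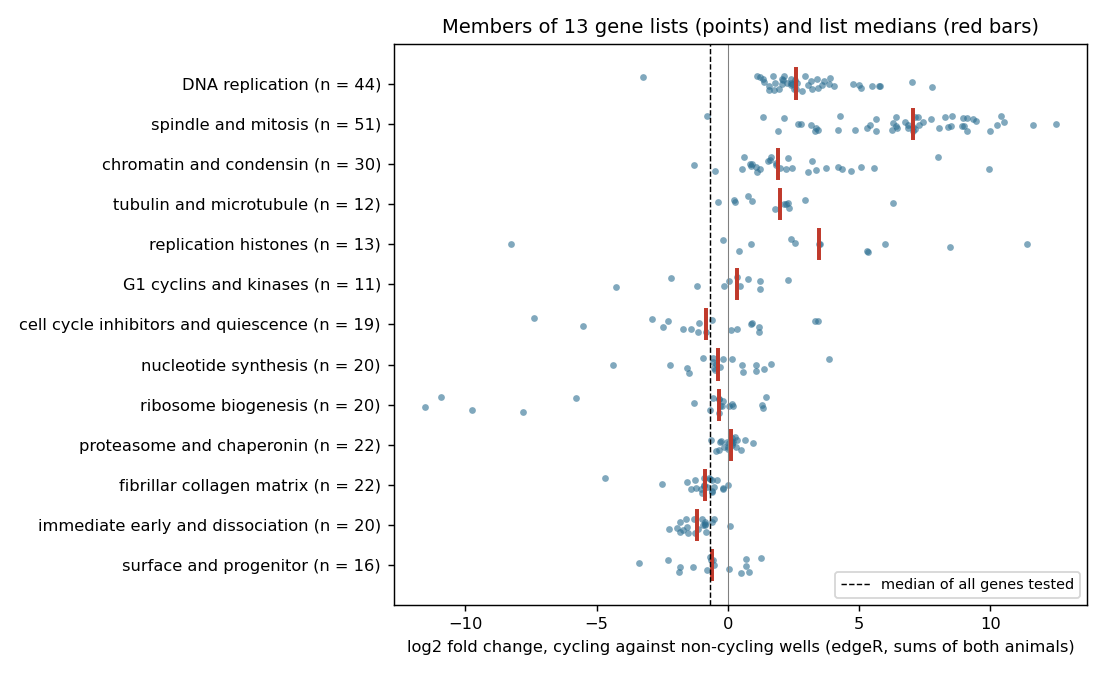
Log2 fold change of each tested member of 13 gene lists, cycling against non-cycling cells, from the edgeR fit on the sums of both animals. Points are genes, red bars are list medians and the dashed line is the median of all genes tested, -0.66. The list medians run from -1.18 (immediate early and dissociation) to 7.05 (spindle and mitosis).

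Among G1 cyclins and their kinases, with 11 of 12 genes tested, the 3 fits called none. Cyclin D1 (Ccnd1), which brings growth signals to the G1 kinases, was at 53.1 and 27.7 CPM in cycling and 48.3 and 39.3 CPM in non-cycling cells. Cyclin D2 (Ccnd2) was at 70.1 and 268 CPM against 360 and 308 CPM, and cyclin D3 (Ccnd3) at 170 and 219 CPM against 191 and 188 CPM. Their log2 fold changes were -0.14 ± 0.65, -1.17 ± 0.61 and 0.05 ± 0.34, with adjusted p between 0.400 and 0.881. Ccnd1 and Ccnd3 took opposite signs in the 2 animals, and Ccnd1 and Ccnd3 also changed sign under other settings. Among 11 tested G1 cyclins and kinases the median was 0.34, and 1 gene was at least 2-fold higher and 2 were at least 2-fold lower in both animals, beside 5.46% and 24.2% of all genes.

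Of the inhibitor and quiescence list, with 19 of 20 genes tested, the 3 fits called 1 gene higher and none lower, and the list median was -0.84. Cdkn2d, an inhibitor of the G1 kinases, was at 296 and 416 CPM against 22.6 and 52.5 CPM (3.33 ± 0.37, adjusted p = 0.0471), from 9 of 16 and 5 of 12 cycling wells. Cdkn1a, the p53 target p21, was at 30.5 and 8.56 CPM against 110 and 156 CPM (-2.89 ± 0.73, adjusted p = 0.177, and 0.00685 by DESeq2). Cdkn1c was at 492 and 259 CPM against 518 and 556 CPM, and Cdkn1b at 85.7 and 46.3 CPM against 29.5 and 29.2 CPM, and the 3 fits called neither. The non-coding RNA Lockd, whose gene (chromosome 6, 134929092 to 134956798) lies beside Cdkn1b (134920401 to 134925513), was at 810 and 807 CPM against 10.1 and 21.9 CPM. It was seen in 15 of 16 and 12 of 12 cycling wells against 14 of 266 and 20 of 292 non-cycling wells, with a log2 fold change of 5.75 ± 0.41 and an adjusted p of 0.00735. Cdkn1b, its neighbour, had 1.21 ± 0.88 and an adjusted p of 0.834.

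Of the remaining genes that all 3 fits called higher, Tacc3 is on the spindle and mitosis list and the others had less direct ties to division. Selenoh (2700094K13Rik in the table), a nuclear selenoprotein, was at 1018 and 980 CPM against 222 and 244 CPM. Cmc2, which encodes a mitochondrial protein, was at 390 and 309 CPM against 50.1 and 54.7 CPM. Tcf19, a growth-regulated nuclear factor, was at 225 and 491 CPM against 6.79 and 14.7 CPM, and Tacc3, a spindle protein that works with Aurora A, at 289 and 245 CPM against 13.2 and 3.32 CPM. These genes were named because 3 fits called them, after their values were seen. Tcf19 and Tacc3 were low in non-cycling cells and may have passed the thinned fit's filter through the cycling cells, so their calls are a description.

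The promoters of the genes that stood apart were read from RefSeq on GRCm38.p6 (mm10), from 250 bases before to 50 after each gene's RefSeq start. These starts can differ from those of the gene positions given above, which are from GENCODE. The Cdca3 window lies wholly inside the GENCODE position of the gene, and part of the Cks1b window lies inside that of Cks1b. 3 motifs were searched on both strands: CCAAT, the box bound by NF-Y; TTTGAA, the core of the cell cycle homology region bound by the MuvB complexes; and 3 spellings of an E2F site, TTTGGCGC, TTTCGCGC and TTTCCCGC. Mitotic and replication genes are shown for contrast, 5′ to 3′ on the strand of the gene, with matches in capitals, and a reverse-strand match reads as its reverse complement. Cdca3 (chr6:124829926-124830225, plus strand), Cks1b (chr3:89418242-89418541, minus strand) and Cdkn3 (chr14:46760291-46760590, plus strand) were called higher. Rrm2 (chr12:24708004-24708303, plus strand) is a replication gene called higher that holds a CCAAT match, and Mcm6 (chr1:128359656-128359955, minus strand) holds E2F matches, of which 2 overlap in the run TTTGGCGCGAAA, though the 3 fits did not call Mcm6. Tk1 and Tyms, replication genes called by all 3 fits, held none of the motifs in this window, and Cks2 held CCAAT but not TTTGAA.
Cdca3: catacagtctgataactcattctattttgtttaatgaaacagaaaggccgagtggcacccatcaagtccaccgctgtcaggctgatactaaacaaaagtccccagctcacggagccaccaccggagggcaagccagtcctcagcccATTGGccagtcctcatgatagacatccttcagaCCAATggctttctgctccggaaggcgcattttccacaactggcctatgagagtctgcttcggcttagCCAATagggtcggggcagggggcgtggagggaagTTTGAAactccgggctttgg
Cks1b: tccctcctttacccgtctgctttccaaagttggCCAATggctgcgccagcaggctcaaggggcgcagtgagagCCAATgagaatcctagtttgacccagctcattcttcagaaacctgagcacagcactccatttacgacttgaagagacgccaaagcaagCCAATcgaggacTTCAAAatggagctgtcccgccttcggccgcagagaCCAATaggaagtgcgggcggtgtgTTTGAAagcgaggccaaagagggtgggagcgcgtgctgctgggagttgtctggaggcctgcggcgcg
Cdkn3: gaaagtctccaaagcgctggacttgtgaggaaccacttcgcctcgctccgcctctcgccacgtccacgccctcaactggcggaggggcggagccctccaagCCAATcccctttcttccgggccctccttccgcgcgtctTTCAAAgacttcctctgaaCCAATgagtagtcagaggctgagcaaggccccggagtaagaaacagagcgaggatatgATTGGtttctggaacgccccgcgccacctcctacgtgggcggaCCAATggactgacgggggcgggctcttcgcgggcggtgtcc
Rrm2: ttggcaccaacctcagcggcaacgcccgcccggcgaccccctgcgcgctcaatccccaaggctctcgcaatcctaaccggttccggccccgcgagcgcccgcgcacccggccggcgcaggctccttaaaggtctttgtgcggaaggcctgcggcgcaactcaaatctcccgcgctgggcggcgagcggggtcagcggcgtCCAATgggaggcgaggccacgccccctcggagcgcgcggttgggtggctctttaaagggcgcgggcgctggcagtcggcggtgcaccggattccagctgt
Mcm6: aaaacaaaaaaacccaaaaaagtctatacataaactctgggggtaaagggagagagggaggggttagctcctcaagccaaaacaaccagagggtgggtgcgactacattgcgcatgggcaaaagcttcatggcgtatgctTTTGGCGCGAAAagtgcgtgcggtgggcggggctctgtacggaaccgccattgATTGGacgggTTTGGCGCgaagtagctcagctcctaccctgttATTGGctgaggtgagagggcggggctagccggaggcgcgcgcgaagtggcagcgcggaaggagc

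Distances are from the RefSeq start. Cdca3 held TTTGAA 30 bases after this start and CCAAT 4 bases before it, and Cks1b held TTTGAA 17 bases and CCAAT 41 bases before its own. Cdkn3 had its TTTGAA on the reverse strand, 111 bases before the start. Over the lists, TTTGAA was in 27 of 40 spindle and mitosis promoters (67.5%) and 11 of 25 chromatin and condensin promoters (44.0%), but in 3 of 31 DNA replication promoters (9.68%). The share was 11.4% of the 8860 tested genes with a promoter and 18.1% of all 27025 promoters. An E2F spelling was in 10 of 31 replication promoters (32.3%) and 4 of 40 spindle promoters (10%), beside 3.76% of tested genes and 1.91% of all promoters. CCAAT was in 67.5%, 76.0% and 54.8% of the spindle, chromatin and replication promoters, beside 38.6% of tested genes. Among lists with median log2 fold changes of 0.12 or less the CCAAT shares varied. They were 57.9% of proteasome and chaperonin, 56.3% of inhibitor and quiescence and 52.9% of immediate early promoters. They were lower for nucleotide synthesis (42.1%), ribosome biogenesis (35.3%), surface and progenitor (18.2%) and fibrillar collagen matrix (16.7%) promoters. A match describes letters in this window and is no evidence of binding. Only 40 of 51, 25 of 30 and 31 of 44 tested members had a promoter in the table.

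**Figure D4:**
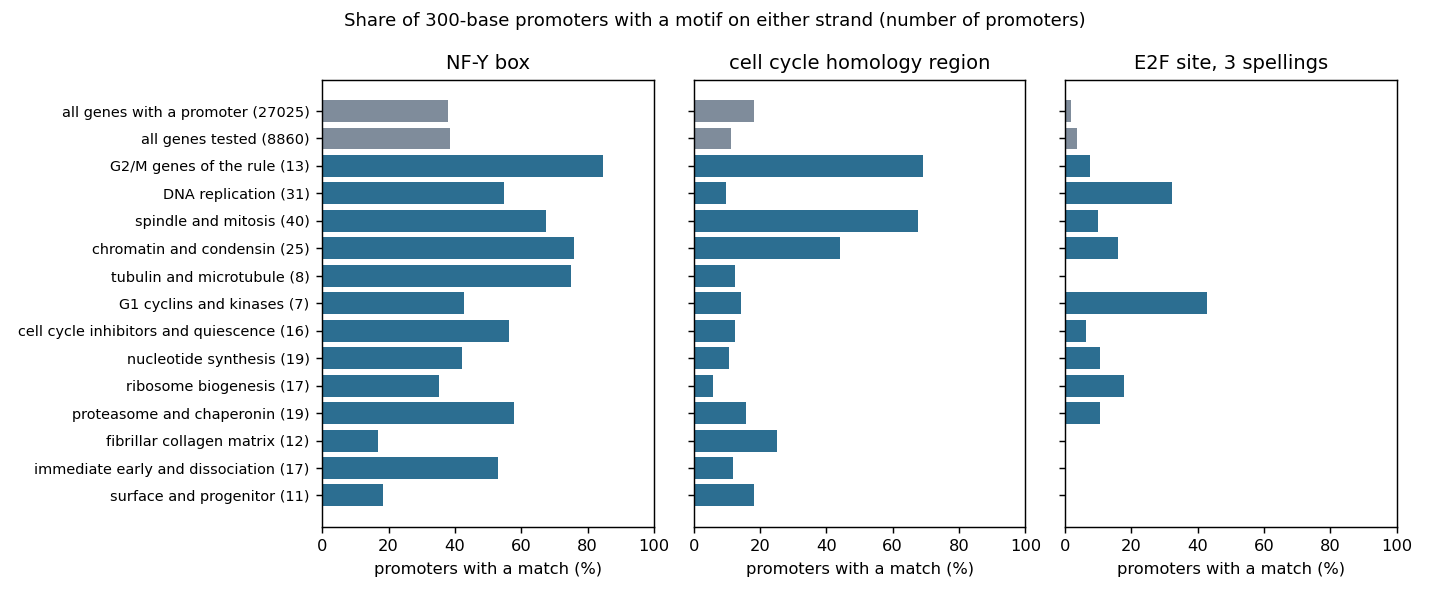
Share of promoters, in percent, that hold the NF-Y box, the core of the cell cycle homology region or an E2F site on either strand, for all promoters and tested genes (grey) and for the rule genes and gene lists (blue). The number of promoters is in brackets. The homology region core is in 67.5% of spindle promoters and 9.68% of replication promoters, and the E2F spellings in 10% and 32.3%.

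Some extracellular matrix genes were called lower in cycling cells. Sparc, the collagen-binding matrix protein osteonectin (chromosome 11, 55394500 to 55423183), varied widely between wells. Its cycling wells ran from 759 through 4515 to 13482 CPM in animal 1 and from 288 through 7725 to 12356 CPM in animal 2, against non-cycling medians of 10374 and 10247 CPM. In the sums it was at 5849 and 5763 CPM against 12118 and 11233 CPM, a log2 fold change of -1.01 ± 0.08, and all 3 fits called it (adjusted p = 0.0167). Mgp, an inhibitor of calcification, was at 2751 and 2996 CPM against 6911 and 8130 CPM (-1.38 ± 0.08, adjusted p = 0.00735), and limma on wells did not call it (0.282). Col1a2, a chain of type I collagen, was at 4909 and 5104 CPM against 13979 and 9393 CPM (-1.19 ± 0.17, adjusted p = 0.0185), and neither limma (0.0924) nor the later edgeR fit (0.0923) called it. Of 22 matrix genes the thinned fit called 4 lower and none higher, beside 0.239% of all genes lower. The later edgeR fit called 2 lower, beside 0.032% of all genes, and limma 1, beside 0.0862%, so most members did not pass. Of the same genes, 3 were at least 2-fold lower in both animals beside 24.2% of all genes, and the list median was -0.86 beside -0.66 for all genes. It was -0.8 beside -0.34 in the thinned fit and -0.23 beside 0.05 in limma.

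Wells were then described by their chondrocyte genes, with no test of the difference between states. The summed chondrocyte list had medians of 223 and 709 CPM in cycling against 2298 and 5918 CPM in non-cycling wells. At least 10000 CPM of it was reached by 4 of 16 (interval 7.27 to 52.4%) and 0 of 12 cycling wells, which allows a share of up to 26.5% (exact upper bound), and by 84 of 266 (31.6%) and 124 of 292 (42.5%) non-cycling wells. The intervals cover counting error among the wells of 1 animal only. Wells are not replicates of a state, so the intervals do not test the states against each other. 12 of 16 cycling wells (75.0%, 47.6 to 92.7%) and 10 of 12 (83.3%, 51.6 to 97.9%) lay at or below their animal's median, against 48.9% and 48.6% of non-cycling wells. Periosteal fibroblast genes reached 1000 CPM in 7 of 16 and 5 of 12 cycling wells, against 37.2% and 34.6% of non-cycling wells, and tendon genes in 6 of 16 and 5 of 12 against 55.6% and 50.3%. The 4 chondrocyte-rich cycling wells, between 29598 and 39285 CPM, were all in animal 1.

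Of the 10 osteoblast genes, 9 were at least 2-fold lower in the summed cycling cells of both animals, beside 24.2% of all genes tested. The thinned fit called 1 of 10 lower, Spp1, beside 0.239% of all genes. Limma called none of the 8 it tested (list median -0.2). Per well, the list had medians of 19.79 and 13.99 CPM in cycling against 50.96 and 16.63 CPM in non-cycling wells. At least 1000 CPM was reached by 3 of 16 and 0 of 12 cycling wells, against 19.92% and 14.73% of non-cycling wells. The highest non-cycling wells were at 61310 and 25544 CPM, and the highest cycling wells at 3657 and 498.7 CPM. The part of single wells in the lower sums was not tested. Ibsp, bone sialoprotein, was on the hypertrophic chondrocyte list and not on the osteoblast list. It was at 0.435 and 1.51 CPM in cycling against 233 and 176 CPM in non-cycling cells (-7.72 ± 0.74, adjusted p = 0.0105). In each animal 1 cycling well held a count of it. With cycling wells taken from 500 CPM the value turned to 0.10. Spp1, osteopontin, was at 221 and 77.6 CPM against 886 and 668 CPM (adjusted p = 0.0471), and in the wells in between it was at 2421 and 2546 CPM, above both other states. Tnmd, the tendon protein tenomodulin, was at 454 and 407 CPM against 2026 and 1179 CPM (adjusted p = 0.0167), and Chad, the cartilage matrix protein chondroadherin, at 172 and 359 CPM against 1095 and 1333 CPM (adjusted p = 0.0228). Ogn, the small proteoglycan osteoglycin, was at 61.4 and 118 CPM against 1101 and 679 CPM, and limma called it (adjusted p = 0.0365) where the thinned fit did not (0.0937). These genes were singled out after their values were seen.

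Immediate early genes respond to growth signals and also to tissue dissociation, and a few of them were called lower in cycling cells. Fos was at 888 and 1096 CPM against 2496 and 3366 CPM (-1.56 ± 0.13, adjusted p = 0.0270). Zfp36, which destabilises short-lived messengers, was at 191 and 165 CPM against 720 and 979 CPM (adjusted p = 0.0167), and Ier2 at 423 and 390 CPM against 942 and 1573 CPM (adjusted p = 0.0409). The thinned fit called these 3 of 20 genes lower and none higher, beside 0.239% of all genes lower, the later edgeR fit called 1, Fos, and limma on wells called none. At least 2-fold lower in both animals were 6 of 20, beside 24.2% of all genes. Limma gave -1.28 for Fos in all wells and -0.53 among wells low in chondrocyte genes (adjusted p = 0.143 and 0.641). Wells varied widely: the list ran from 39.0 to 21128 CPM over the cycling wells of animal 1, with a median of 1286 CPM beside 5507 CPM in non-cycling wells. In animal 2 the medians were 5528 and 10620 CPM.

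**Figure D5:**
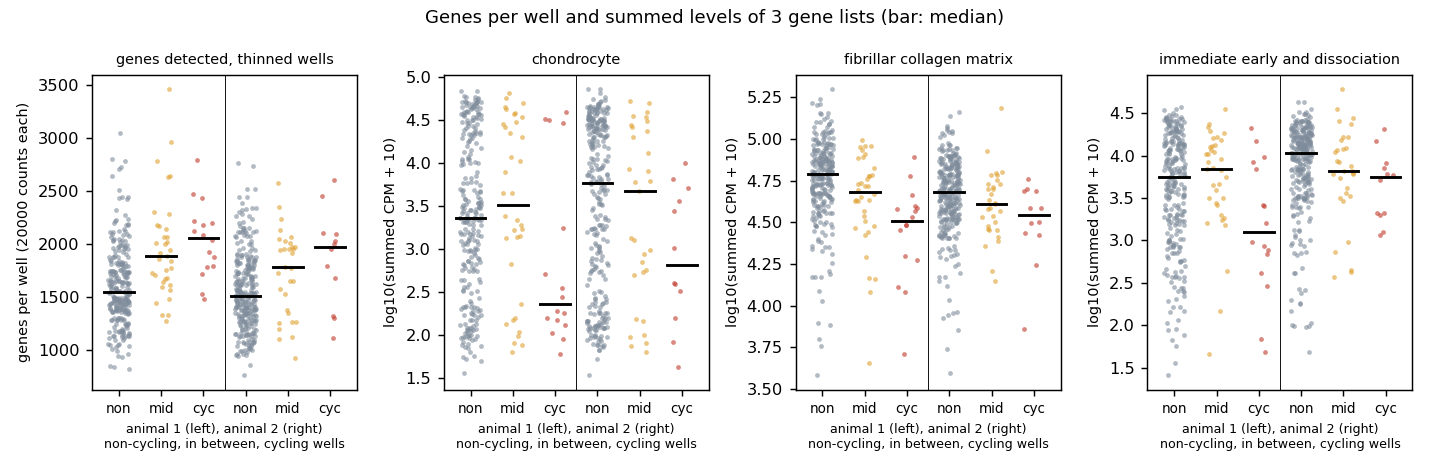
Genes detected per well after thinning to 20000 counts, and summed chondrocyte, fibrillar collagen matrix and immediate early lists as log10(CPM + 10), for non-cycling (non), in-between (mid) and cycling (cyc) wells of animals 1 (left) and 2 (right). Points are wells and bars are medians. Cycling medians are higher for genes detected (2060 and 1972 against 1547 and 1510) and lower for the 3 lists in both animals.

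The lower genes were then set beside cell composition. Among wells at or below their animal's chondrocyte median, 12 and 10 of them cycling, the edgeR log2 fold change of Sparc was -0.90 beside -1.01 in all wells, that of Col1a2 -1.19 beside -1.19 and that of Tnmd -2.41 beside -1.87. That of Mgp was -0.65 instead of -1.38, that of Chad -0.70 instead of -2.21 and that of Ier2 -0.83 instead of -1.57. That of Fos was -1.12 beside -1.56 and that of Zfp36 -1.62 beside -2.22. In the same wells limma on means per well called 22 of 9265 genes, all higher (0.237%), and all 22 were among the 89 it called in all wells. H2afz, Stmn1, Cdca3, Pclaf (2810417H13Rik) and Lockd were among them, with adjusted p of 0.0126 each, and none of the lower genes was. The part of other cell types in the lower genes was not tested beyond this restriction.

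Some genes, among them genes of the cytoskeleton, were called higher only by limma among the 3 fits. In the limma fit each well weighs the same, and the wells were not thinned although cycling wells were deeper. The part of depth in these calls was not tested. Vim, the intermediate filament vimentin of mesenchymal cells, had medians of 3047 and 3207 CPM over cycling wells against 1001 and 761 CPM over non-cycling wells. Limma called it (2.56 on the log2 scale, adjusted p = 0.00567), and among wells low in chondrocyte genes (1.34, adjusted p = 0.0428). In the sums it was at 3250 and 2973 CPM against 1928 and 1737 CPM, and edgeR did not call it (0.76 ± 0.18, adjusted p = 0.105 in the thinned fit). Tagln2, an actin-binding protein, gave 3.82 in limma (adjusted p = 0.0116) and 3.0 among wells low in chondrocyte genes (adjusted p = 0.0318). Crip1 and Lgals1, a LIM-domain protein and galectin-1, were called by limma in all wells (adjusted p = 0.00567 and 0.0115) and not among wells low in chondrocyte genes (0.299 and 0.121). Actb gave 0.90 (adjusted p = 0.0116) and 0.51 (0.257).

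Biosynthesis genes followed. The 20 genes of nucleotide synthesis, the 20 of ribosome biogenesis and the 22 of the proteasome and chaperonin had median log2 fold changes of -0.37, -0.33 and 0.12, all above the -0.66 of all genes, and the 3 fits called none of them in either direction. DESeq2 called 1 of the nucleotide genes higher, Hprt, and 2 of the ribosome genes lower. Hprt, the purine salvage enzyme, was at 327 and 432 CPM against 135 and 156 CPM (1.38 ± 0.28, adjusted p = 0.212, and 0.00284 by DESeq2). Pes1 and Bop1, which act together in making the large ribosomal subunit, had no count in the cycling cells of either animal, as had 13.5% of all genes tested. Against a floor of 3 counts per sum, Pes1 was 18.8-fold and 15.9-fold lower and Bop1 10.6-fold and 7.13-fold lower in animals 1 and 2. A count is not 1 molecule, and 1 well with the gene could hold more than 3 counts, so these values are no lower bounds. Pes1 was present in only 29 of 266 and 32 of 292 non-cycling wells, and Bop1 in 15 of 266 and 12 of 292. DESeq2 called both lower (adjusted p = 0.00691 and 0.0383). The later edgeR fit called neither, the thinned fit and limma did not call Pes1, and Bop1 passed the filter of neither.

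The 3 fits called none of the 16 surface and progenitor genes, of which the thinned fit tested 14. Cd200 was at 39.6 and 29.2 CPM in cycling against 207 and 132 CPM in non-cycling cells (-2.28 ± 0.32, adjusted p = 0.0693, and 0.00126 by DESeq2), from 2 of 16 and 2 of 12 cycling wells. Among wells low in chondrocyte genes its log2 fold change was -0.99. The endoglin gene Eng was seen in 3 of 16 and 0 of 12 cycling wells. Thy1, which marks connective tissue progenitors, was at 52.7 and 30.2 CPM against 43.1 and 38.3 CPM, Ly6a at 322 and 167 CPM against 435 and 689 CPM, and Pdgfra at 137 and 64.5 CPM against 81.0 and 56.8 CPM. Their log2 fold changes were 0.03 ± 0.70, -1.34 ± 0.53 and 0.49 ± 0.42, with adjusted p between 0.497 and 0.898. Cd44, the hyaluronan receptor, was higher at 340 and 267 CPM against 123 and 127 CPM, but 1 well gave 59.5 and 71.3% of its cycling counts, and none of the 3 fits called it (1.26 ± 0.29, adjusted p = 0.241). DESeq2 called it higher (adjusted p = 0.0128), and in wells high in chondrocyte genes its value turned to -1.39.

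Markers of cells outside the mesenchyme differed by list. Endothelial genes had a count in 1 of 16 and 0 of 12 cycling wells, lymphoid genes in none of 28 and skeletal muscle genes in 1 of 16 and 0 of 12. They were rare in non-cycling wells too. Endothelial genes had a count in 13 of 266 and 10 of 292 of these, lymphoid genes in 4 and 2, and skeletal muscle genes in 14 and 16. Macrophage and osteoclast genes had a count in 13 of 16 and 8 of 12 cycling wells and in 175 of 266 and 166 of 292 non-cycling wells, at medians of 8.57 and 5.32 CPM in cycling and 10.9 and 6.01 CPM in non-cycling wells. Schwann cell genes had a count in 6 of 16 and 2 of 12 cycling wells, reaching 1037 and 660 CPM, and in 64 of 266 and 104 of 292 non-cycling wells, reaching 1675 and 2383 CPM. Erythroid genes had a count in 11 of 16 and 1 of 12 cycling wells, at up to 23.7 and 197 CPM, and in 134 of 266 and 16 of 292 non-cycling wells. Neutrophil genes had a median of 0 CPM and reached 1784 CPM in 1 cycling well of animal 1. The part of these cells in the results was not tested.

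The wells in between were compared with non-cycling wells in the same fit. Against non-cycling wells edgeR called 0 of 12507 genes (0%), with 164 at an unadjusted p of 0.05. They share the non-cycling wells with the main comparison, so the values are given side by side. H2afz was at 153 and 136 CPM in the sums of these wells, Tuba1b at 219 and 292 CPM and Stmn1 at 16.3 and 29.97 CPM, each between the other states in both animals. Rrm2, at 10.8 and 3.20 CPM, was below the non-cycling cells of both animals. Of the rule genes, Cdk1 was seen in 21 of 36 and 12 of 31 of these wells and Mki67 in 1 of 36 and 2 of 31.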

How the data were processed

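RNA of individually sorted reporter cells was reverse transcribed with template switching, amplified by PCR, pooled and sequenced, per the labels' protocols. The authors deposited a table of counts per gene and well, with 24866 genes and 658 wells of 2 animals. The build is mm10 per the submitters' processing notes, while aligner, counter and duplicate handling were not given in the sources used here. Among nonzero values the median count was 18 and 23.1% equalled 1, so a count is not 1 molecule. Wells passed with 500 or more genes and a mitochondrial share of 20% or less, and no doublet caller was run because cells were sorted singly. Counts were summed over 3 states and 2 animals and fitted with edgeR 4.0.16 (quasi-likelihood, TMM, filterByExpr, animal as block, Benjamini-Hochberg adjustment, threshold 0.05) in R 4.3.3. Animal pairs the sums, since the states of 1 animal share its plate. DESeq2 1.42.0 and limma 3.58.1 gave alternatives, limma on log2(CPM + 10), and the fit was tested on simulated data. With 1 plate per animal, p-values rest on 2 animals. Gene positions are from GENCODE on GRCm38. Named genes were, for each list other than those of cell types, the 3 with the smallest p, a set named whatever their values, and the rule genes. The part of the rule for genes passing the threshold named none, and genes called by other fits were named after their values were seen. The members and lists were chosen with earlier results of these data known.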

Additional observations from a re-analysis of the deposited data

How the results depend on the processing

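Against 0 genes called by edgeR on the sums, DESeq2's Wald test called 700, the fit with no filter on low counts 1, wells thinned to 20000 counts 54 and, chosen after seeing the data, limma on mean log2 values per well 89, limma in wells low in chondrocyte genes 22 and edgeR with legacy = FALSE 52. Without the replicate block of animal, edgeR called 12. DESeq2 size factors, the 4 sums alone, thresholds of 500 or 2000 CPM, non-cycling wells with no rule gene or low in replication genes, a filter on 33 wells (also chosen after seeing the data) and wells low or high in chondrocyte genes called 0. Leaving out an animal leaves no residual degrees of freedom, so only the log2 ratio of the other animal is left, with no test. The ratios of animals 1 and 2 had opposite signs for Ccnd1 (0.14 and -0.50), Ccnd3 (-0.16 and 0.22), Eng (0.63 and -6.10) and Thy1 (0.29 and -0.34) among the tested named genes. The following log2 fold changes turned sign, and the cause was not tested. In wells high in chondrocyte genes, which hold 4 and 2 cycling wells, Prps1 was -0.69, Cd44 -1.39, Cdkn1b -0.40, Eng 1.46, Thy1 -1.05, Pdgfra -2.78 and Tmsb4x -1.94. In wells low in them Shmt1 was -2.53, Ccnd3 -0.15, Mcm4 -1.38, Thy1 -0.54, Crip1 -0.14 and Tmsb4x -0.24. With limma on wells Hspe1 was 0.19, Ccnd1 0.15, Ctsk 0.13, Eng 0.03, Thy1 -0.03 and Ly6a 0.15, and in wells low in chondrocyte genes Hspe1 was 0.41, Ccnd3 -0.01, Thy1 -0.38 and Spp1 0.10. From 2000 CPM Psmd14 was -0.07 and Ccnd3 -0.72, and from 500 CPM Cdkn1c was 0.02, Thy1 -0.40 and Ibsp 0.10. Ccnd1 was 0.04 with DESeq2 size factors and 0.05 with DESeq2. With no filter Ccnd3 was -0.02 and Thy1 -0.04, and after thinning -0.23 and -0.47. Thy1 was -0.03 with the 4 sums alone and -0.38 against non-cycling wells low in replication genes. With 28 cycling wells, a gene seen in few of them rests on 1 or 2 cells.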
